A study of Mus musculus with 6 samples.

Results

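The 7 genes described here encode the mouse receptors that bind the constant (Fc) part of IgG, together with their signalling and transport partners and the low-affinity receptor for IgE. They were taken by gene name: every non-control probe annotated to Fcgr1, Fcgr2b, Fcgr3, Fcgr4, Fcer1g, Fcgrt or Fcer2a was used, which gave 10 of the 56605 probes and 7 of the 37325 gene names on the array. Of these, 9 probes were well above background on both arrays of at least 1 group, and each of the 7 genes kept at least 1 such probe.

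Activating Fc gamma receptors carry antibody-coated particles and immune complexes into myeloid cells and start kinase signalling through immunoreceptor tyrosine-based activation motifs (ITAMs), most of them on the shared gamma chain encoded by Fcer1g. The receptor encoded by Fcgr2b carries an inhibitory motif and sets the threshold for that signalling, so that the balance between activating and inhibitory receptors is a classical property of neutrophils, monocytes, macrophages and dendritic cells. The neonatal receptor encoded by Fcgrt works inside the cell, where it recycles IgG and albumin and routes immune complexes.

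RNA came from cultures of bone marrow (BM) cells of C57BL/6J female mice aged 6 to 8 weeks, with 2 arrays in each of 3 groups. MDSC (conv.), myeloid-derived suppressor cells made by the conventional method, were whole BM cells kept for 4 days with GM-CSF at 40 ng/mL. One label calls the MDSC (conv.) samples MDSCs with dendritic cells, and it is not clear whether dendritic cells were added, remained or arose in them. 6G- BM-MDSC were made in the same way from BM cells depleted of Ly-6G+ cells on magnetic beads, and DCs, dendritic cells, were BM cells kept for 8 days with GM-CSF at 20 ng/mL. The methods give tissue culture-treated dishes for the MDSC cultures and non-treated dishes for DCs. The cultures were not sorted, so each value is a mean over all cells present, and fewer cells of a type cannot be told apart from less RNA per cell. Before the magnetic separation the BM cells were treated with an antibody that blocks CD16 and CD32, the products of Fcgr3 and Fcgr2b, a step the methods give for the BM cells to be separated and, among the arrays' groups, for no other. The labels do not say whether the replicates of a group were separate cultures, so that p-values measure only the spread between these arrays.

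The cultures carried the markers of their labels on a mixed background. The summed level of 13 dendritic cell markers, in multiples of the 75th percentile of the array, was 934 to 947 in MDSC (conv.), then 899 to 969 in 6G- BM-MDSC and 1600 to 1640 in DCs, with Xcr1 not above background in any group. The 12 neutrophil markers summed to 1610 to 1660, 1330 to 1560 and 553 to 566 in the same order, and all 12 were well above background in every group. Not every dendritic cell marker followed the sum. Of the 12 tested by limma, 10 lay below DCs and 1 above at an adjusted p under 0.05 for MDSC (conv.). For 6G- BM-MDSC, 9 lay below and 2 above. Clec9a was higher than in DCs for both MDSC groups (log2 difference 1.212, adjusted p = 0.003, then 1.595, adjusted p = 0.00141). Flt3 was the other higher marker of 6G- BM-MDSC (0.496, adjusted p = 0.0155). The array row, the days of culture, the GM-CSF dose and the dish type were shared by both MDSC groups and differed for DCs. An effect of any of these and the difference from DCs cannot be told apart.

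The genes separated DCs from both MDSC cultures in 3 members, Fcgr4, Fcgr1 and Fcgrt, while Fcgr3 and Fcgr2b passed limma's threshold in neither comparison. In MDSC (conv.) against DCs, 1 of the 7 genes was higher and 2 were lower by limma with an adjusted p under 0.05, where 29.2% of all 21862 genes tested were called in either direction, 13.4% higher and 15.8% lower. In 6G- BM-MDSC against DCs, 2 were higher and 2 lower, where 32.8% of all genes were called, 15% higher and 17.8% lower. With 7 members, 3 or 4 calls lie near these backgrounds and say nothing about the family as a whole. The median difference of the 7 genes was 0.23 (log2) for MDSC (conv.) and 0.31 for 6G- BM-MDSC, beside -0.03 and -0.04 over all genes. The arrays of the groups did not overlap for 5 of the 7 genes in MDSC (conv.) against DCs (71.2% of all genes) and for all 7 in 6G- BM-MDSC against DCs (72.8% of all genes). For Fcgr3 in the latter the margin was small, 6.19 against 6.184 on the nearest arrays after scaling, and the unscaled intensities overlapped. Both comparisons share the DC arrays.

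**Figure D1:**
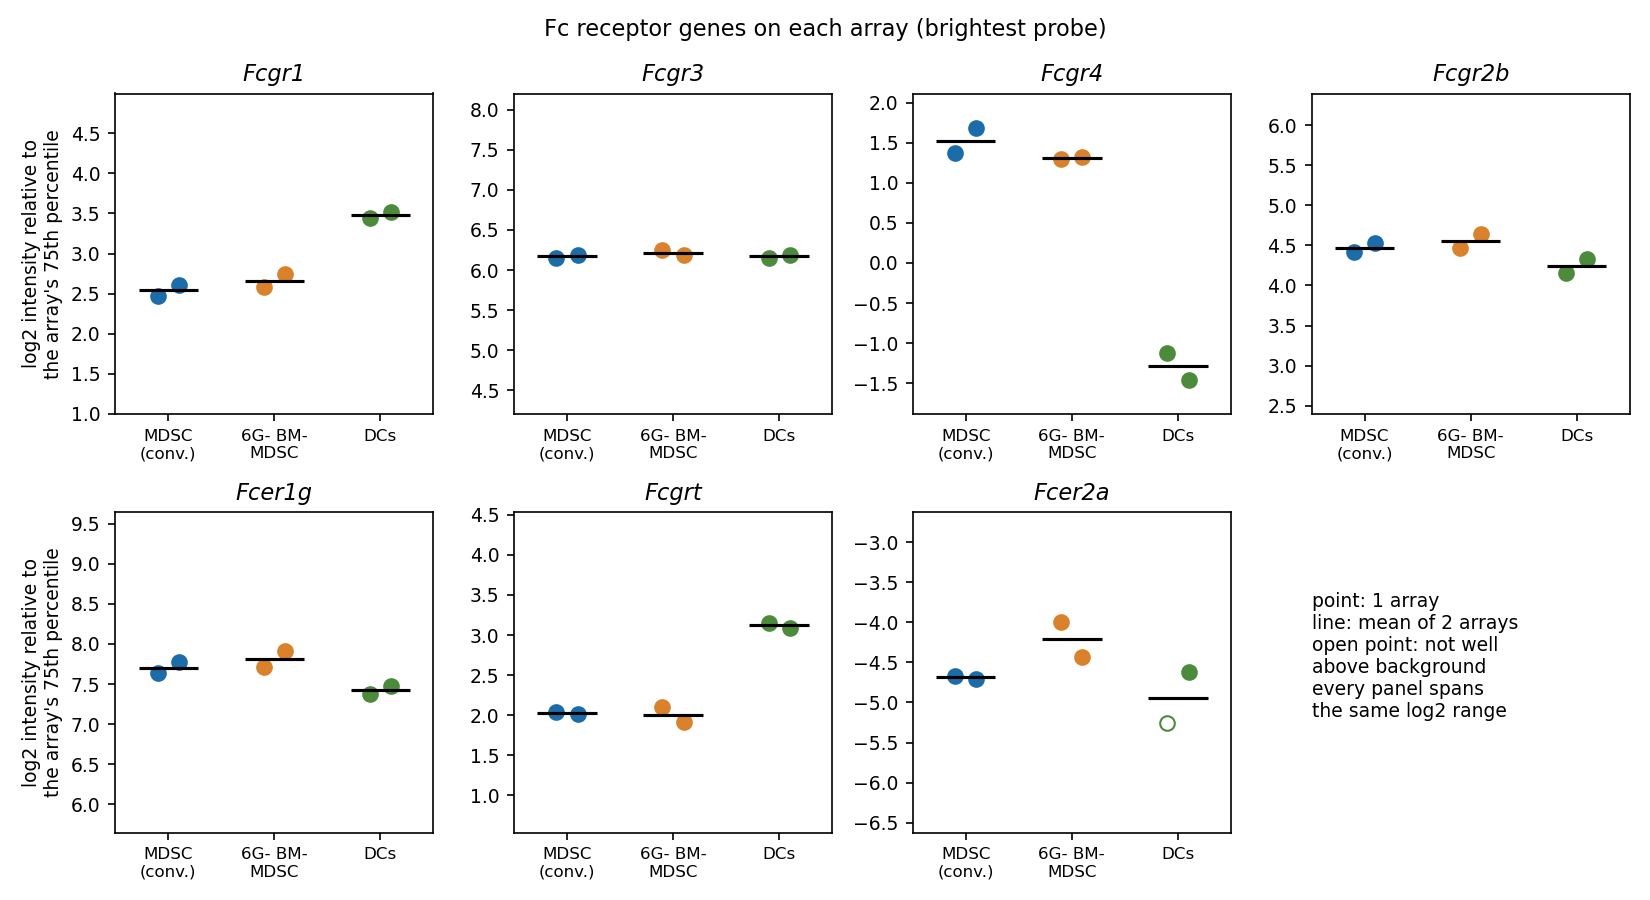
Level of each gene on each of the 6 arrays, as log2 of the processed intensity relative to the 75th percentile of the array (vertical axis), by group (horizontal axis). Each panel has its own position but spans the same log2 range. Fcgr4 was high in both MDSC groups and low in DCs, Fcgr1 and Fcgrt were highest in DCs, and the points of the other genes lay close together, apart from the dim Fcer2a.

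Among the activating receptors, Fcgr4 showed the largest difference of the 7 genes from DCs. It encodes an intermediate-affinity receptor for IgG2a and IgG2b that is found on neutrophils and monocytes. The processed intensity of its probe (mm9 chr1:172959738-172959797, plus strand) was 1637 and 2017 for MDSC (conv.), then 1536 and 1402 for 6G- BM-MDSC, against 281 and 207 for DCs. The 4 MDSC arrays all lay far above both DC arrays. After scaling, Fcgr4 was 7.03-fold higher in MDSC (conv.) than in DCs (log2 difference 2.81, SE 0.158, limma adjusted p = 7e-04). It was 6.07-fold higher in 6G- BM-MDSC than in DCs (2.60, SE 0.158, adjusted p = 0.000845). Of the 12 neutrophil markers, 10 were higher than in DCs and 0 lower in each MDSC group. The 4 monocyte markers summed to 355 to 362, 316 to 353 and 147 to 161 in MDSC (conv.), 6G- BM-MDSC and DCs, but 1 of them, Ly6c2, passed the test as higher (3.15 and 3.03 on the log2 scale, limma adjusted p = 0.000318 and 0.000286). Ms4a4c was lower in 6G- BM-MDSC (-0.30, adjusted p = 0.0432) and gave -0.29 in MDSC (conv.) (adjusted p = 0.0512), while Ccr2 and F13a1 did not pass. The part of these markers in the difference of Fcgr4 was not tested.

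Fcgr1 went the other way. It encodes CD64, the high-affinity receptor for IgG2a, which can bind monomeric IgG and is used as a marker of monocytes and macrophages. Its probe (mm9 chr3:96088462-96088521, minus strand) read 3510 and 3853 for MDSC (conv.), then 3723 and 3744 for 6G- BM-MDSC, against 6678 and 6522 for DCs. Both DC arrays lay above the 4 MDSC arrays, which overlapped each other. Fcgr1 was 1.92-fold lower in MDSC (conv.) than in DCs (log2 difference -0.94, SE 0.099, limma adjusted p = 0.00361) and 1.77-fold lower in 6G- BM-MDSC (-0.82, SE 0.099, adjusted p = 0.00499). The 8 macrophage markers summed to 210 to 222, 242 to 244 and 311 to 339 in MDSC (conv.), 6G- BM-MDSC and DCs, thus also highest in DCs, and their part in the difference was not tested.

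Fcgr3, which encodes the low-affinity receptor CD16, was bright in all 3 groups. Its brighter probe read 45159 and 45777 for MDSC (conv.), then 47404 and 40908 for 6G- BM-MDSC, against 43723 and 41322 for DCs. On the log2 scale relative to the 75th percentile, MDSC (conv.) and DCs had the same mean of 6.17 (SD 0.02 in each group, n = 2). The difference between MDSC (conv.) and DCs had a 95% confidence interval of -0.18 to 0.18 (log2), a narrow range around 0. The probe maps to mm9 chr1:172981647-172981722 (minus strand), where its 60 bases span 76 positions. A second probe to Fcgr3 (mm9 chr1:172984129-172984188, minus strand) read 13240 and 13675, 13623 and 12962, and 11615 and 11128 in the same order. Here the DC arrays lay below the 4 MDSC arrays, with differences of 0.15 (95% interval -0.06 to 0.35) for MDSC (conv.) and 0.22 (0.02 to 0.42) for 6G- BM-MDSC, neither of which passed the threshold in limma's fit to all probes (adjusted p = 0.223 and 0.0877).

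The inhibitory receptor gene Fcgr2b, whose product CD32B recruits the phosphatase SHIP to dampen activation, lay slightly above DCs in the MDSC cultures without passing the threshold. Its brighter probe (mm9 chr1:172890988-172891047, minus strand) read 13504 and 14500 for MDSC (conv.), then 13787 and 13928 for 6G- BM-MDSC, against 10898 and 11378 for DCs. The MDSC arrays did not overlap with DCs, but the differences of 0.23 (SE 0.108, limma adjusted p = 0.169) and 0.31 (SE 0.108, adjusted p = 0.082) did not pass. In 6G- BM-MDSC the adjusted p came under the threshold in 3 of 17 alternatives: 0.019 with normexp background correction, 0.0444 with the replicate number as a block and 0.0298 with an intensity-dependent prior. The 95% confidence intervals were -0.05 to 0.51 and 0.04 to 0.59. The second probe (mm9 chr1:172895833-172895892, minus strand) read 4307 and 5069, 5499 and 5198, and 3426 and 4099 in the same order. It gave differences from DCs of 0.22 for MDSC (conv.) and 0.51 for 6G- BM-MDSC, in the same direction as the brighter probe (adjusted p = 0.341 and 0.0638). After scaling, its MDSC (conv.) arrays overlapped with DCs (2.77 and 3.01 against 2.48 and 2.85), and its 6G- BM-MDSC arrays did not.

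**Figure D2:**
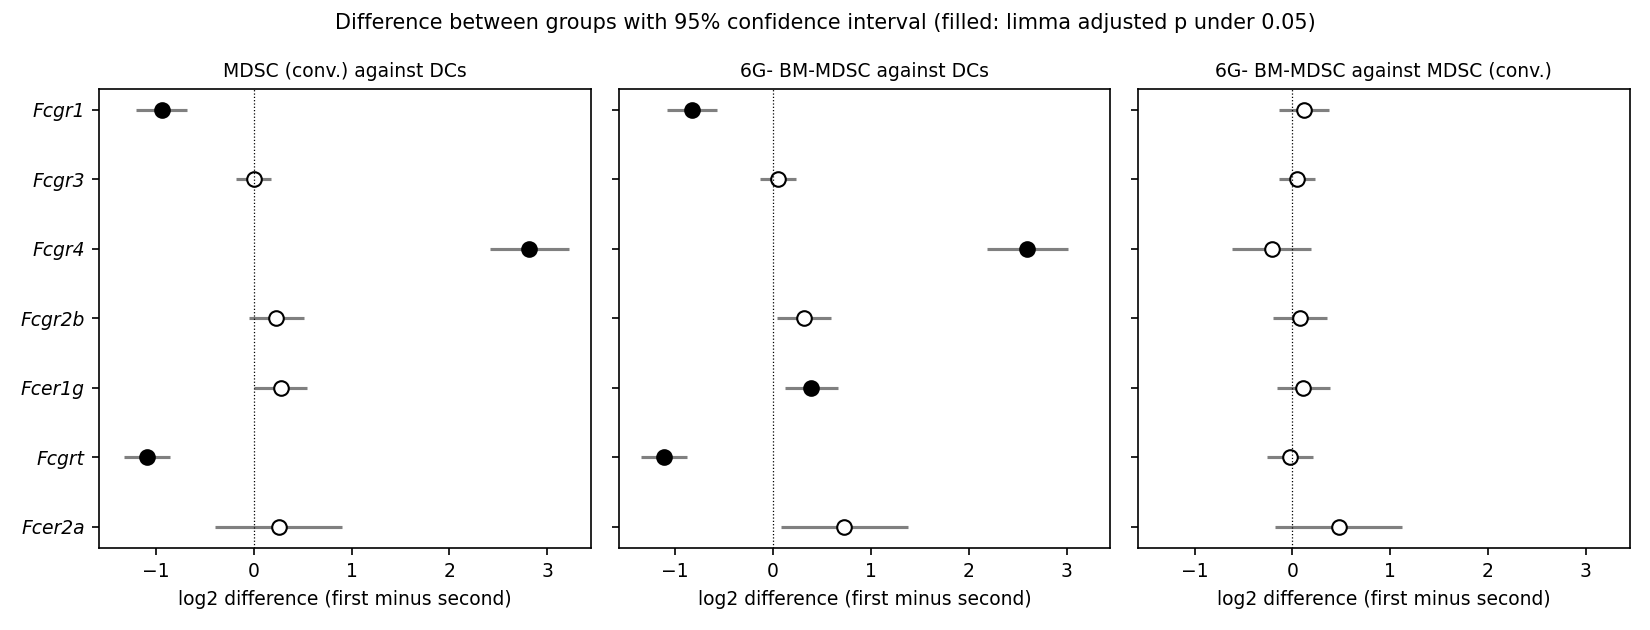
Log2 difference (horizontal axis) of each gene in 3 comparisons, with the 95% confidence interval from limma; filled points passed an adjusted p under 0.05. Fcgr4 lay at 2.81 and 2.60 above DCs, Fcgr1 and Fcgrt lay below 0 against DCs, and every interval of 6G- BM-MDSC against MDSC (conv.) crossed 0.

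The balance between activating and inhibitory receptor genes was examined within each array as the log2 value of the activating gene minus that of Fcgr2b, since an array's own scaling cancels in it. Fcgr4 minus Fcgr2b was -3.04 and -2.85 for MDSC (conv.), then -3.17 and -3.31 for 6G- BM-MDSC, against -5.28 and -5.78 for DCs. Compared with DCs, Fcgr4 thus shifted by 2.44 (5.41-fold) relative to Fcgr2b over the 4 MDSC arrays. Fcgr1 minus Fcgr2b was -1.94 and -1.91 for MDSC (conv.), then -1.89 and -1.90 for 6G- BM-MDSC, against -0.71 and -0.80 for DCs, a shift of -1.16 (2.23-fold) in the opposite direction. Fcgr3 minus Fcgr2b shifted by -0.25 (1.19-fold), with 1.74 and 1.66, 1.78 and 1.55, and 2.004 and 1.861 in the same order. The MDSC arrays and the DC arrays did not overlap for any of the 3 genes, and neither did they for 61.7% of all genes set against Fcgr2b in the same way. For Fcgr3 this rested on the probes used: its second probe minus Fcgr2b read -0.03 and -0.08, -0.02 and -0.10, and 0.09 and -0.03 in the same order, which overlapped, and so did Fcgr3 against the second probe of Fcgr2b. For the brighter probes an exact two-sided permutation test gave p = 0.0667 in each case, the smallest that 4 against 2 arrays allow, and 0.267 after Benjamini-Hochberg adjustment over 12 comparisons. With 2 against 2 arrays the smallest p of that test is 0.333, so that the exact test could not reach 0.05 in either design.

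**Figure D3:**
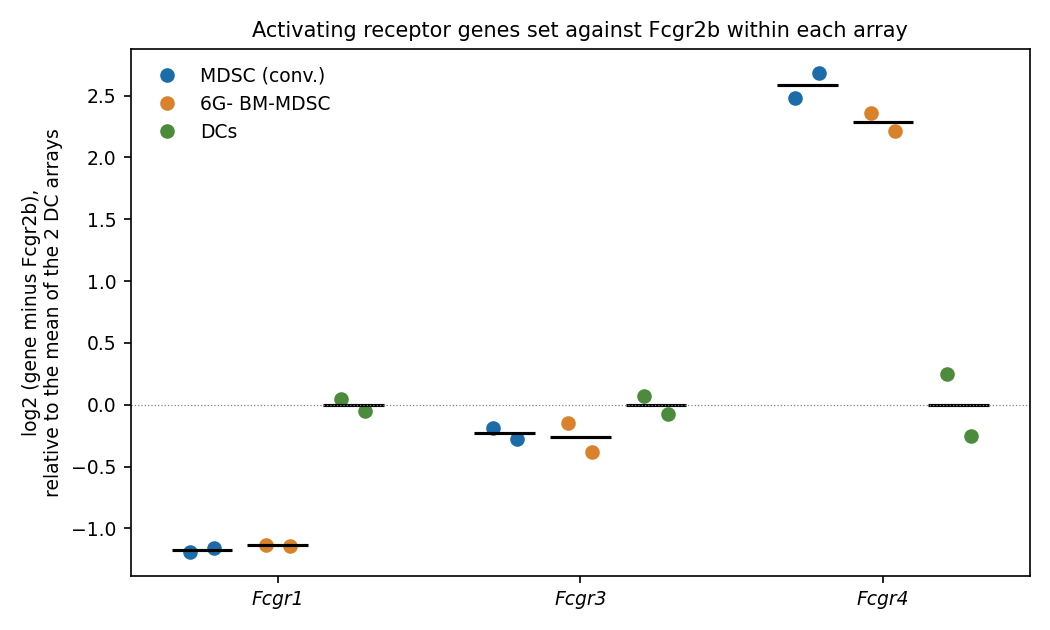
Log2 value of Fcgr1, Fcgr3 and Fcgr4 minus that of Fcgr2b on the same array, set to 0 at the mean of the 2 DC arrays (vertical axis); points are arrays and bars are group means. The MDSC arrays lay about 1.16 below DCs for Fcgr1, 0.25 below for Fcgr3 and 2.44 above for Fcgr4.

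The shared gamma chain gene Fcer1g gave a bright signal on every array. Its probe (mm9 chr1:173159794-173159853, minus strand) read 125752 and 137609 for MDSC (conv.), then 131134 and 134924 for 6G- BM-MDSC, against 101996 and 100916 for DCs. No array was saturated there. Both MDSC groups lay above DCs, by 1.21-fold in MDSC (conv.), which did not pass the threshold (log2 difference 0.28, SE 0.106, limma adjusted p = 0.113), and by 1.31-fold in 6G- BM-MDSC, which did (0.39, SE 0.106, adjusted p = 0.046). The call in 6G- BM-MDSC was lost when any 1 of the 6 arrays was left out, and the adjusted p ranged from 0.0117 to 0.175 over the alternatives tried.

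Fcgrt, which encodes the heavy chain of the neonatal Fc receptor, was lower in both MDSC cultures. Its probe (mm9 chr7:52350556-52350615, minus strand) read 2612 and 2541 for MDSC (conv.), then 2672 and 2110 for 6G- BM-MDSC, against 5462 and 4824 for DCs. The MDSC arrays of both groups lay below DCs and overlapped each other. Fcgrt was 2.13-fold lower in MDSC (conv.) (log2 difference -1.09, SE 0.092, limma adjusted p = 0.00198) and 2.16-fold lower in 6G- BM-MDSC (-1.11, SE 0.092, adjusted p = 0.00184). B2m, whose product is the light chain of the same receptor and which was named for that role after its values were seen, was 1.22-fold lower in MDSC (conv.) (-0.28, adjusted p = 0.0479), and in 6G- BM-MDSC the difference of -0.20 did not pass (adjusted p = 0.0978).

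Fcer2a, which encodes CD23, the low-affinity IgE receptor of B cells, was close to background. Its better probe (mm9 chr8:3682021-3682080, minus strand) read 25.0 and 24.1 for MDSC (conv.), then 39.1 and 26.0 for 6G- BM-MDSC, against 16.1 and 23.1 for DCs. It was well above background on 5 of 6 arrays, the exception being the first DC array. Neither difference from DCs passed limma's threshold (0.25, adjusted p = 0.486, and 0.73, adjusted p = 0.0843), and the second probe (mm9 chr8:3689270-3689329, minus strand) was not above background on any array.

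No Fc receptor gene passed the test between the 2 ways of making MDSCs. By limma, 0 of the 7 genes passed an adjusted p under 0.05, where 0.0137% of all genes were called, and 0 passed an unadjusted p under 0.05, where 10.8% of all genes did. Adjusted p-values lay between 0.563 for Fcer2a and 0.949 for Fcgrt. For Fcgr4 the difference, 6G- BM-MDSC minus MDSC (conv.), was -0.21 with an interval of -0.62 to 0.19. For Fcgr3 it was 0.05 (-0.13 to 0.23), for Fcgr1 0.12 (-0.14 to 0.37), for Fcgr2b 0.08 (-0.20 to 0.36), for Fcer1g 0.11 (-0.16 to 0.38) and for Fcgrt -0.02 (-0.26 to 0.22). The dim Fcer2a had the widest interval, 0.47 (-0.18 to 1.12). Fcgr4, Fcgr3 and Fcer2a were the 3 genes whose arrays did not overlap between these groups, where 44.2% of all genes did not overlap. For Fcgr3 the nearest arrays lay at 6.19 in 6G- BM-MDSC and 6.184 in MDSC (conv.) after scaling.

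The 4 members on chromosome 1 lie close to each other and had unequal differences from DCs. In the order of the reference table (GRCm38.p6), Fcgr4 stands between Fcgr2b and Fcgr3, and its difference from DCs of 2.81 in MDSC (conv.) stood beside 0.23 for Fcgr2b and 0.00 for Fcgr3. Fcrla, which encodes an Fc receptor-like protein of B cells and lies before Fcgr2b, was 2.67-fold higher in MDSC (conv.) (1.42, limma adjusted p = 0.0104) and 1.88-fold higher in 6G- BM-MDSC (0.91, adjusted p = 0.0318). Cfap126, next to Fcgr3, was lower (-0.93, adjusted p = 0.00567, and -1.27, adjusted p = 0.00228).

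**Figure D4:**
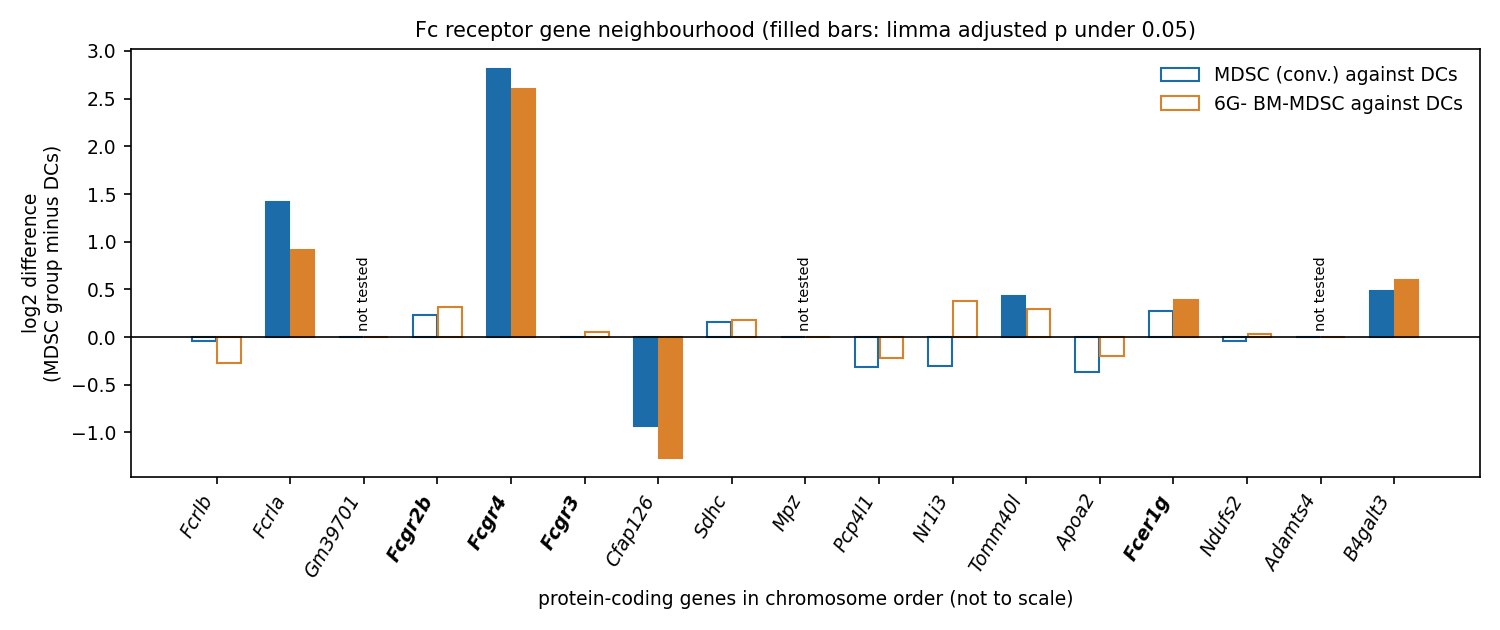
Log2 difference from DCs (vertical axis) of the protein-coding genes around the Fc receptor genes of chromosome 1, in chromosome order and not to scale; filled bars passed an adjusted p under 0.05 and members are in bold. Fcgr4 rose to 2.81 and 2.60 between Fcgr2b and Fcgr3, whose bars stayed under 0.32.

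The starts of all members were read for 4 short motifs of myeloid factors to show what stands there. Printed are those of Fcgr1, Fcgr4 and Fcgrt, which were called in both MDSC groups, and of Fcgr3, the neighbour of Fcgr4 that did not pass. The window of Fcer1g, which was called in 6G- BM-MDSC only, is not printed. The 250 bases before the RefSeq start on GRCm38.p6 are given 5' to 3' on the strand of the gene, with motif matches in capitals. The motifs were PU.1 (GAGGAA, present in 23.3% of all 32851 promoter windows of this length), a STAT or GAS element (TTCNNNGAA, 7.02%), an IRF element (a pair of GAAA with NN between them, 2.98%) and a C/EBP element (TTGCNNAA, 9.56%), each searched on both strands, and no match shown overlaps another motif. The windows are chr3:96293970-96294219 (minus) for Fcgr1, chr1:171018676-171018925 (plus) for Fcgr4, chr1:171059404-171059653 (minus) for Fcgr3, and chr7:45103823-45104072 (minus) for Fcgrt.
Fcgr1: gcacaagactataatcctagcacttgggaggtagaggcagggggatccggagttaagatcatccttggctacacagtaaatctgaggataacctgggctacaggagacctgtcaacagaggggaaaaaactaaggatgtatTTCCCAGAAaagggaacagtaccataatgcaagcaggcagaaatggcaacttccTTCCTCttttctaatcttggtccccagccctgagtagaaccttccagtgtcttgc
Fcgr4: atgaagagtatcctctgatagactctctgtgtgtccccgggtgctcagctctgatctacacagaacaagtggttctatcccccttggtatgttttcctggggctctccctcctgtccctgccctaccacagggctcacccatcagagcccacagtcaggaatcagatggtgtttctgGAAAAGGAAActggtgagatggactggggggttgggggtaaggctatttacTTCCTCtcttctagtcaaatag
Fcgr3: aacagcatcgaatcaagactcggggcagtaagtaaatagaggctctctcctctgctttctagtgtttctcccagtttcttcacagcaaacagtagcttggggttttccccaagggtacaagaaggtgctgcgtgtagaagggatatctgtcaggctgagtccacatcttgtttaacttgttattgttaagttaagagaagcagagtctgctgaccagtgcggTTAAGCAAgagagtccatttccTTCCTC
Fcgrt: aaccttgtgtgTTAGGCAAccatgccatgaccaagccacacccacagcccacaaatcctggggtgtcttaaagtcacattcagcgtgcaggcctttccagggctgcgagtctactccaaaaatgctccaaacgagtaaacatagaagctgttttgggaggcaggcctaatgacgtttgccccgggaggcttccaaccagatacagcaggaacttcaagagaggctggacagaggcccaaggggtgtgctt
Fcgr1, Fcgr3 and Fcgr4 each held the PU.1 letters on the opposite strand, beginning 55, 6 and 22 bases before the start. Fcgr1 held 1 GAS match and Fcgr4 held 1 IRF match, while Fcgr3 and Fcgrt held 1 C/EBP match each. The windows of Fcgr2b and Fcer1g and all 3 windows of Fcer2a held none of the 4 motifs. These are matches of letters and not measured binding. Fcgr3 has a second RefSeq start a few bases away with the same matches.

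The probes of Fcgr1 and Fcgrt, which carry the lower values in MDSCs, are 60 bases long. They are printed 5' to 3' in lower case with no base marked.
Fcgr1 probe: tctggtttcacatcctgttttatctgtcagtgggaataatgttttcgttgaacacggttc
Fcgrt probe: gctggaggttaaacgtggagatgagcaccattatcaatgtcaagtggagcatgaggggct

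Genes whose products work with the Fc receptors were read in 8 lists, of which the list of receptors coupled to Fcer1g and other ITAM chains had the highest median. The lists were chosen with earlier results of these data known, so that this rank is a description and not a test. A gene is counted as above or below DCs where limma's adjusted p was under 0.05, and the medians over all genes were those given above. Over all genes, 13.4% lay above and 15.8% below DCs in MDSC (conv.), and 15% and 17.8% in 6G- BM-MDSC, so that a list with shares near these shows nothing particular to it. Of the 16 tested genes of the list with Fcer1g-coupled receptors, 8 exceeded DCs and 0 fell below them in MDSC (conv.), with a median of 0.79. In 6G- BM-MDSC it was 10 above and 1 below, with a median of 1.08. These counts include Hcst, whose product carries no ITAM and which was higher in both groups (0.96, limma adjusted p = 0.00879, and 1.27, adjusted p = 0.00381). Fcer1a and Ms4a2, the other chains of the high-affinity IgE receptor, were 4.86-fold and 8.03-fold higher in MDSC (conv.) (limma adjusted p = 0.000887 and 0.00215) and 5.25-fold and 6.54-fold higher in 6G- BM-MDSC (adjusted p = 0.000777 and 0.00281). Gp6, the collagen receptor of platelets, was not well above background in DCs and exceeded them at least 8.47-fold in the conventional and at least 9.11-fold in the depleted cultures (adjusted p = 0.00139 and 0.00125).

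Fcer1a and Ms4a2 are also markers of mast cells and basophils. The summed level of the 9 markers of those cells, which include both genes, was 88.0 to 88.4 in MDSC (conv.), 81.8 to 85.7 in 6G- BM-MDSC and 13.1 to 17.1 in DCs, with 8 of the 9 well above background in every group. Their part in the differences of the list was not tested. Of 8 tested genes for other immunoglobulin receptors, 4 were higher and 1 lower than in DCs in each MDSC group, with medians of 0.44 and 0.22. Fcmr, the IgM receptor, was 3.60-fold higher in MDSC (conv.) and 3.67-fold higher in 6G- BM-MDSC (limma adjusted p = 0.000318 and 0.000284), and Fcrl1 was 4.27-fold and 3.71-fold higher (adjusted p = 0.002 and 0.00259). B cell markers summed to 4.31 to 4.51 in MDSC (conv.), 3.75 to 4.34 in 6G- BM-MDSC and 0.858 to 0.898 in DCs, with 7, 7 and 5 of the 8 well above background on both arrays. Of the 7 tested, 4 were higher than in DCs and 0 lower in each MDSC group, while Cd79a, Pax5 and Cd22 did not pass. The part of these markers was not tested. Lgals3, encoding galectin-3 and named after its values were seen, was the lower member (1.22-fold, adjusted p = 0.0384, and 1.31-fold, adjusted p = 0.0163).

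The kinases and adaptors below the activating receptors held genes on both sides of DCs. Of 30 genes, 4 lay above and 8 below DCs in MDSC (conv.), and for 6G- BM-MDSC it was 5 above and 7 below (medians 0.02 and -0.02). Lat, a linker phosphorylated after receptor engagement, was 3.71-fold and 3.95-fold higher (limma adjusted p = 0.00086 and 0.000762), and the kinase gene Src was 2.54-fold and 1.94-fold lower (adjusted p = 0.00202 and 0.00494). Syk, which encodes the kinase that docks on phosphorylated ITAMs and was named here for that role after its values were seen, gave 0.30 and 0.27 and did not pass (adjusted p = 0.0616 and 0.0711). Of 15 genes of inhibitory signalling, 3 lay above and 4 below DCs in MDSC (conv.), against 2 above and 5 below in 6G- BM-MDSC (medians -0.11 and -0.04). Ubash3a, a suppressor of T cell receptor signalling, had the largest difference of the list and was 4.57-fold and 3.74-fold higher (adjusted p = 0.00426 and 0.00596), with 1 of the 2 DC arrays well above background. Dok1, an adaptor that restrains Ras signalling, was 1.99-fold and 2.34-fold lower (adjusted p = 0.00217 and 0.00124), and Inppl1, encoding the phosphatase SHIP2, was 1.93-fold and 2.28-fold lower (adjusted p = 0.0363 and 0.0186). Inpp5d, encoding the phosphatase SHIP itself and named on the same ground as Syk, gave -0.13 and -0.10 (adjusted p = 0.296 and 0.369).

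**Figure D5:**
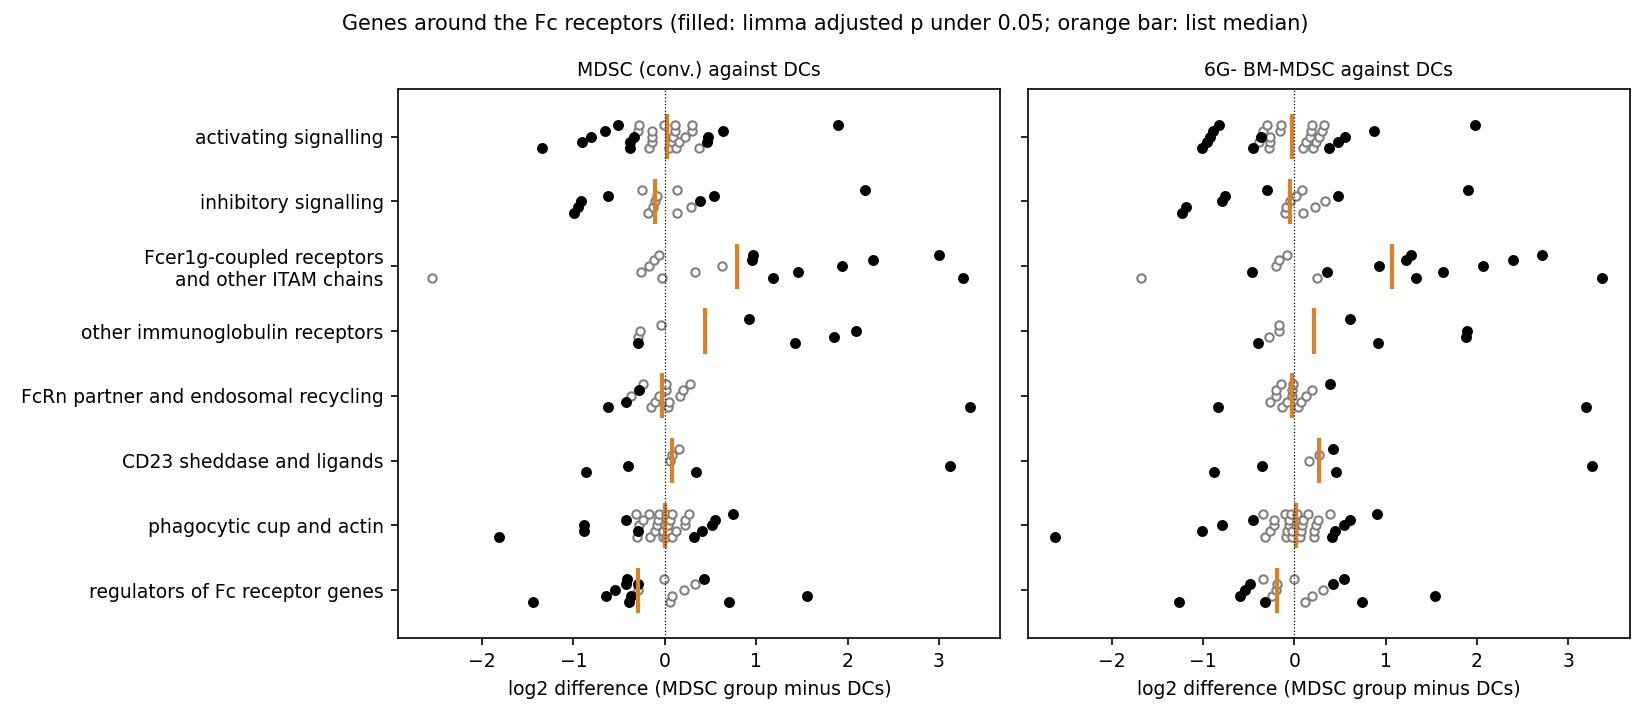
Log2 difference from DCs (horizontal axis) of every tested gene in 8 lists around the Fc receptors (rows) for both MDSC groups; filled points passed an adjusted p under 0.05 and the orange bar is the list's median. The list of Fcer1g-coupled receptors and other ITAM chains had medians of 0.79 and 1.08, while the medians of the other lists lay between -0.29 and 0.44.

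Phagocytic cup genes were called no more often than all genes. Of 35 genes for actin and the phagocytic cup, 5 lay above and 5 below DCs in MDSC (conv.), against 5 above and 4 below in 6G- BM-MDSC, with a median of 0.02 in the latter. Abi3, a subunit of actin-regulating complexes, was 3.51-fold and 6.13-fold lower (limma adjusted p = 0.000945 and 0.000378). The list of the Fcgrt partner and endosomal recycling, 16 genes, held 1 gene above and 3 below DCs in MDSC (conv.), against 2 above and 1 below in 6G- BM-MDSC (median -0.03 in each). Its largest difference was that of Ehd3, a membrane-remodelling ATPase that was not well above background in DCs and was at least 4.94-fold and at least 4.48-fold higher (adjusted p = 0.0161 and 0.0169). Of 7 genes for the sheddase and ligands of CD23, 2 lay above and 2 below DCs in MDSC (conv.), against 3 above and 2 below in 6G- BM-MDSC (medians 0.07 and 0.27), with the integrin gene Itgb3 8.73-fold and 9.57-fold higher (adjusted p = 0.000327 and 0.000286) and Itgax, encoding CD11c, 1.81-fold and 1.84-fold lower (adjusted p = 0.00609 and 0.00525).

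Of 17 regulators of Fc receptor genes, 3 lay above and 8 below DCs in MDSC (conv.), against 4 above and 5 below in 6G- BM-MDSC (medians -0.29 and -0.19). C5ar1, the C5a receptor, whose signal is known to raise activating over inhibitory Fc receptors, was 2.94-fold and 2.91-fold higher (limma adjusted p = 0.00296 and 0.00295). Irf8, a transcription factor needed for dendritic cell and monocyte development, was 2.73-fold and 2.40-fold lower (adjusted p = 0.00268 and 0.0038), and Cebpb, a factor of emergency granulopoiesis, was 1.62-fold and 1.67-fold higher (adjusted p = 0.0274 and 0.0217). Spi1, encoding PU.1, was named for its role after its values were seen. It was 1.34-fold higher in 6G- BM-MDSC (adjusted p = 0.0309) and gave 0.34 in MDSC (conv.) (adjusted p = 0.0612). In each of the 8 lists, 0 genes passed between 6G- BM-MDSC and MDSC (conv.) by limma's adjusted p, where 0.0137% of all genes did. The lists held 7 to 35 tested genes, and 1 to 4 genes a list had an unadjusted p under 0.05. Over all genes that share was 10.8%. The most, 4, came from the 30 genes of activating signalling, and the list of 35 genes held 2.

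Genes with the profile nearest to each member over the 6 arrays were found by the mean absolute difference of centred log2 values. Adgrg3 lay nearest to Fcgr4 at 0.044, followed by Slc40a1 and Trpm2. Pak1 lay nearest to Fcgr1 at 0.034, and Il21r nearest to Fcgrt at 0.029. For Fcgr3, whose profile was flat, Fbxo34, Coa6 and Akirin1 all lay at 0.011, and Btd lay nearest to Fcgr2b at 0.015.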

How the data were processed

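The authors hybridised cyanine-3 labelled RNA to one-colour Agilent arrays and deposited scanner files whose processed intensity is background-subtracted and not scaled between arrays. Agilent Feature Extraction is given as version 10.7.3.1 in the file headers and as 10.5.1.1 in the submitters' notes. All 6 arrays lay on 1 slide and no spot was saturated. Between 55.6% and 59.93% of probes were well above background, and the number of arrays limits the precision.

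In R 4.3.3 (data.table package, version 1.17.8), processed intensities were log2-transformed and centred on the 75th percentile of their array. A probe was kept if well above background on both arrays of a group (33484 of 56605 probes), and a gene was its brightest probe (21862 genes). limma 3.58.1 (lmFit, eBayes) was fitted to all 6 arrays with group as the only factor, with 3 residual degrees of freedom, a prior of 1.96 and Benjamini-Hochberg adjustment, threshold 0.05. A fold against a group with no array above background is a minimum, set against the dimmest signal that still counted as well above background on each array. Marked spots were left out. The members and gene lists were chosen with earlier results of these data known. Named list genes were up to 3 per list and comparison, those with the largest difference among the genes called, otherwise those with the highest mean signal; other names, apart from markers and chromosomal neighbours, are marked as such. Nearest profiles were limited to 3 genes per member. Alternatives covered background, normalization, filter, probes, spread model and each array left out. The code was tested on simulated data.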

Additional observations from a re-analysis of the deposited data

How the results depend on the processing

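Fcgr4, Fcgr1 and Fcgrt kept their direction against DCs in both MDSC groups under every other way of testing or scaling run. At the threshold of 0.05 they also kept their call, except with Student's t-test after Benjamini-Hochberg adjustment. That test stands in the paper's general statistics, while its array methods give fold changes and gene set enrichment. It called 0 of the 7 genes in either comparison, 7 genes in all for MDSC (conv.) and 66 for 6G- BM-MDSC. At an unadjusted p under 0.05 the t-test called the same 3 genes in each comparison. Over all 21862 genes it then called 7075 for MDSC (conv.) and 7490 for 6G- BM-MDSC, so that 3 of 7 lies near the share over all genes. With limma and a 2-fold minimum, 2 genes, Fcgr4 and Fcgrt, were called in each of these comparisons, and Fcgr1 fell short of that minimum. Over all genes, 1990 then passed for MDSC (conv.) against DCs and 2173 for 6G- BM-MDSC against DCs. Fcer1g lost its call in 6G- BM-MDSC in 9 of 17 alternatives, and it passed in MDSC (conv.) in 3 of 17. Fcgr2b passed in 6G- BM-MDSC in 3 of 17. Against each other, the MDSC groups had 0 genes called in all alternatives. Leaving out 1 array at a time, with the lone array left in a group assumed to vary like the others, gave 3 called genes throughout in MDSC (conv.) against DCs, 3 to 4 in 6G- BM-MDSC against DCs (the fourth, without the second DC array, being Fcer2a at 1.042, adjusted p = 0.044, in place of Fcer1g) and 0 between the MDSC groups, and shifts relative to Fcgr2b of -1.203 to -1.107 for Fcgr1, -0.32 to -0.177 for Fcgr3 and 2.185 to 2.685 for Fcgr4. With the second probe of Fcgr2b, tried after seeing the data, the shifts were -1.248, -0.341 and 2.342, and with that of Fcgr3 its shift was -0.088. Over all alternatives Fcer2a in 6G- BM-MDSC against DCs ran from 0.046 to 1.042. Only differences that had not passed changed sign: Fcer2a in MDSC (conv.) against DCs became -0.124 with normexp background correction and -0.063 without the first DC array (up to 0.568 with another left out), and without the second 6G- BM-MDSC array Fcgr2b became -0.004 and Fcgrt 0.07 between the MDSC groups (0.166 and -0.115 without the first). Over all genes, the count of calls in MDSC (conv.) against DCs was 6382, 11616 with no filter on dim probes and 2794 to 5466 with 1 array left out; in 6G- BM-MDSC against DCs it was 7171, 11950 and 3737 to 6004. Between the MDSC groups 3 genes were called, 9 with normexp and 64 with an intensity-dependent prior.

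The labels do not say that replicate numbers pair the samples, and the deviations of same-numbered arrays correlated by only 0.042 to 0.125. With the replicate number as a block, 3 of the 7 genes were called in MDSC (conv.) against DCs, 5 in 6G- BM-MDSC against DCs (Fcgr2b in addition) and 0 between the MDSC groups, and 5963, 6858 and 3 over all genes.

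With 2 arrays per group, the confidence intervals set the precision, and the array rows, which separate DCs from both MDSC groups, leave that contrast without a within-row value. Fcer2a lay so close to background that its differences cannot be placed. A probe's intensity also reflects its own response, so that levels of different genes were not compared.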
